A study of Mus musculus with 1 sample.

Results

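The genes examined were the constant genes of the gamma delta T cell receptor (TCR) that held reads in peripheral T cells of 1 mouse with small cell lung cancer (SCLC), Trdc, Tcrg-C1, Tcrg-C2 and Tcrg-C4, together with Cd163l1. They were chosen by name, 5 of the 32285 genes of the matrix, with earlier results of these data known, so their ratios are descriptions. The mouse belonged to the vehicle group, which received phosphate-buffered saline every 3 days, and carried autochthonous lung tumours started by Adeno-Cre delivery to the airways, which deletes Rb1 and Trp53 on a C57BL/6 background. From 150 µl of its blood, T cells were enriched untouched with the Pan T Cell Isolation Kit II after lysis of red cells, and gene expression and TCR contigs were read from the same droplets. The combination-treated mouse and the healthy reference were not analysed here. As a single library of a single mouse gives no spread between replicates, no test was run and no p-value is given. All intervals are exact 95% intervals and cover counting error only.

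A T cell carries either an alpha beta or a gamma delta TCR. In both, the receptor chains end in a constant region and signal through the same CD3 proteins, of which Cd3e is one. A gamma delta T cell joins 1 of several delta variable segments to Trdc, and 1 of several gamma variable segments to Tcrg-C1, Tcrg-C2 or Tcrg-C4. Such cells mostly lack the coreceptors CD4 and CD8, and many belong either to a programme that makes IL-17 or to one that makes interferon. Delta segments lie inside the alpha locus, and some variable segments can be joined to either chain. Gamma genes can also be rearranged and transcribed in T cells that carry an alpha beta TCR. Cd163l1 is no TCR gene: it encodes a scavenger receptor (Scart1) known from IL-17-producing gamma delta T cells.

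In RefSeq on GRCm38, Trdc, the delta constant gene, lies at chr14:54142851-54146108. The gamma constant genes lie on chromosome 13, Tcrg-C1 at chr13:19214103-19216618, Tcrg-C2 at chr13:19305060-19307551 and Tcrg-C4 at chr13:19344558-19352343. Cd163l1 lies at chr7:140197218-140231145. The first 120 bases of the gamma constant genes' GENCODE vM39 transcripts show how well reads can tell them apart, with capitals at the bases that differ from Tcrg-C1:
Tcrg-C1: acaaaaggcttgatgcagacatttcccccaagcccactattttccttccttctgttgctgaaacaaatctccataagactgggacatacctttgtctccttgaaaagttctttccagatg
Tcrg-C2: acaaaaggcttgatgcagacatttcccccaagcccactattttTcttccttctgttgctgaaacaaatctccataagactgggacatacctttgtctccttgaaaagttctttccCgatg
Tcrg-C4: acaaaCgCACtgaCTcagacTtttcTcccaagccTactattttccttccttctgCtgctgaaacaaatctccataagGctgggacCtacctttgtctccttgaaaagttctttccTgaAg
Over these bases Tcrg-C2 differed from Tcrg-C1 at 2 positions and Tcrg-C4 at 14. Of 835 stretches of 90 bases in the Tcrg-C1 transcript, 15 were also found in Tcrg-C2 and 0 in Tcrg-C4. The read length and the place of the reads in these genes were not examined. Tcrg-C3, a further gamma constant gene with 96.7% of these bases equal to Tcrg-C1, held 0 UMIs in the called barcodes. A read from a stretch that Tcrg-C1 shares with Tcrg-C2 cannot be assigned to either.

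Levels were counted in UMIs (unique molecular identifiers), each standing for a single RNA molecule caught in a droplet. Barcodes with at least 1331 UMIs were called, which left 1600 barcodes with 1334 to 18399 UMIs and a median of 3934. Of these, 1221 held Cd3e, and 923 of the 1221 had a clonotype, a set of TRA and TRB contigs that the authors' Cell Ranger run had assigned to a cell. The members held 342 UMIs in 106 barcodes, or 0.429 per 10000 UMIs. Barcodes without a clonotype were shallower, with a median of 2945 against 5265 UMIs among those with Cd3e. They were also poorer in ribosomal protein RNA, since 75.2% of them against 12.9% of the clonotyped ones had under 10% of their UMIs in ribosomal protein genes. Levels below are UMIs pooled over a group per 10000 UMIs of the group. They are compared between groups and not between genes.

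All 5 genes were higher in Cd3e barcodes without a clonotype than in those with one, by 3.14-fold for Tcrg-C2 to 25.2-fold for Tcrg-C1. Every interval of these ratios lay above 1. A rise of at least 2-fold was met by 23.4% of the 10431 genes with at least 20 UMIs in both groups together. Tcrg-C1 and Cd163l1, with 4 and 19 UMIs in clonotyped barcodes, passed this filter only through the clonotype-free group, where they were high. No count of members past the fold is therefore given. The constant genes of the alpha beta TCR did not share this direction, with Trac at 0.642 (0.512 to 0.796) times the level of clonotyped barcodes, Trbc2 at 0.730 (0.624 to 0.849) and Trbc1 at 0.824 (0.666 to 1.01). These lower levels were not seen in barcodes with at least 10% ribosomal protein UMIs, where Trac was at 0.911 (0.654 to 1.24), Trbc1 at 1.045 (0.752 to 1.42) and Trbc2 at 1.20 (0.977 to 1.465).

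Trdc, the delta chain constant gene, held 79 UMIs in 26 of the 298 clonotype-free barcodes and 24 UMIs in 11 of the 923 clonotyped ones. These are levels of 0.773 (0.612 to 0.963) and 0.0420 (0.0269 to 0.0625) per 10000, a ratio of 18.4 (11.5 to 30.4). Single barcodes reached 8 Trdc UMIs without and 7 with a clonotype, so the groups overlapped in their extremes. At least 3 Trdc UMIs were found in 11 clonotype-free and 3 clonotyped barcodes. Most barcodes of both groups, 272 and 912, held none.

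The gamma constant genes were divided unequally, Tcrg-C1 most and Tcrg-C2 least by their ratios. Tcrg-C1, the constant gene of the cluster that holds Tcrg-V4 to Tcrg-V7, held 18 UMIs without and 4 with a clonotype, a ratio of 25.2 (8.29 to 102). Tcrg-C2, which is joined to Trgv2, held 23 and 41 UMIs, a ratio of 3.14 (1.80 to 5.35), and more of its barcodes had a clonotype (27) than not (11). For Tcrg-C4, joined to Tcrg-V1, the counts were 23 and 26 UMIs in 14 and 16 barcodes, a ratio of 4.94 (2.70 to 9.01). Among clonotyped barcodes, 42 of 923 held a gamma constant UMI and 11 held Trdc.

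Cd163l1 held 49 UMIs in only 5 clonotype-free barcodes and 19 UMIs in 7 clonotyped ones, a ratio of 14.4 (8.33 to 25.9). This ratio rested on few barcodes, since 1 barcode held 25 of the 49 UMIs, and without the barcode with most UMIs the ratio was 7.11 (3.73 to 13.7). The clonotype comparison also depended on what counts as a TCR. When any contig was enough, 121 Cd3e barcodes stayed without a TCR, and the ratio was 3.095 (1.70 to 5.31) for Trdc and 2.10 (1.14 to 3.61) for the gamma sum. The intervals of Tcrg-C1, Tcrg-C2 and Tcrg-C4 then included 1, and Cd163l1 was at 0 UMIs in the 121 barcodes, the reverse direction.

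**Figure D1:**
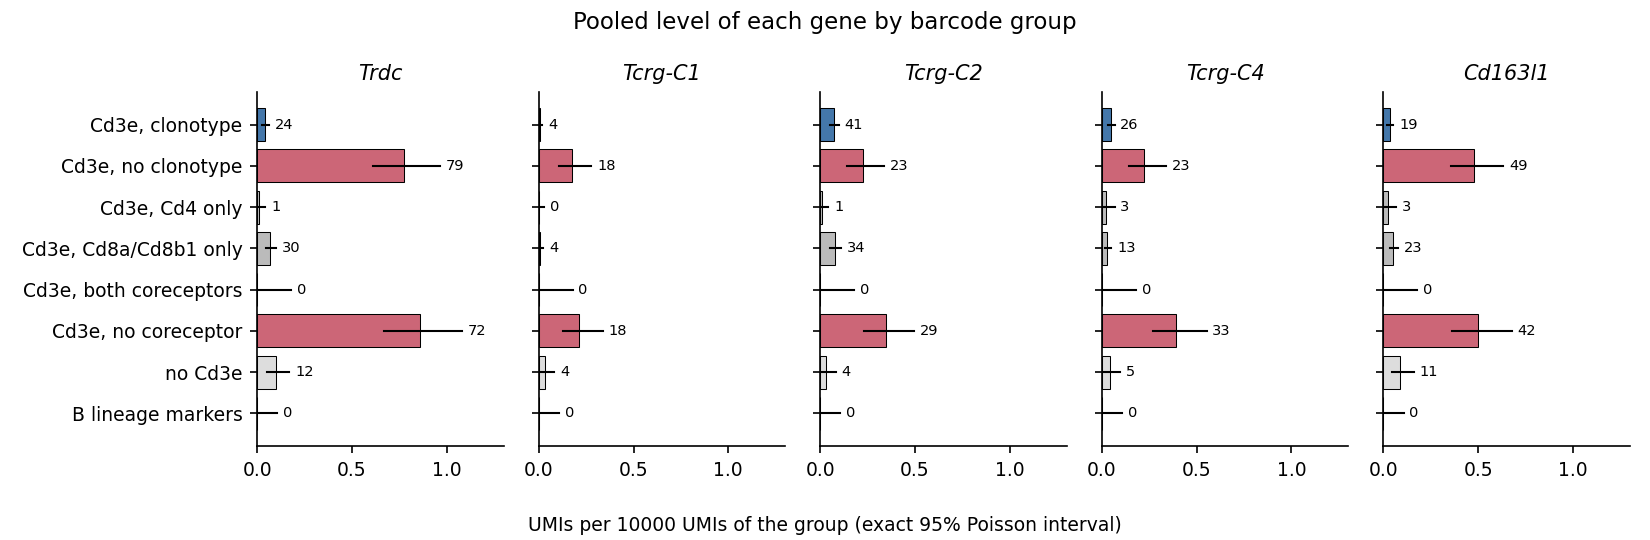
Pooled level of each gene (UMIs per 10000 UMIs, bars, with exact 95% Poisson intervals as lines and the UMI count beside each bar) in barcode groups of the vehicle library. The bars of clonotype-free and of coreceptor-free Cd3e barcodes (red) are the highest for each gene, with 79 and 72 Trdc UMIs, while 87 barcodes with B cell markers held 0 UMIs of all 5 genes.

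The part of RNA quality in these ratios was not tested, but they were also taken on either side of 10% ribosomal protein UMIs. Among Cd3e barcodes with at least 10% ribosomal protein UMIs, 74 without and 804 with a clonotype, the Trdc level was 2.10 against 0.0435 per 10000, a ratio of 48.4 (29.8 to 81.2). Cd163l1 was 35.1-fold (19.98 to 63.9), Tcrg-C2 5.56-fold (2.80 to 10.4) and Tcrg-C4 8.67-fold (3.91 to 18.3) higher there, and Tcrg-C1 67.5-fold (22.0 to 276). In that comparison 4.59% of 9952 genes with at least 20 UMIs in both groups together were at least 2-fold higher. Tcrg-C1 and Cd163l1, with 4 and 19 UMIs in the clonotyped barcodes, passed this filter only through the clonotype-free group, so no count of members is given. Under 10% the members were sparse, with 9 Trdc UMIs in 7 of 224 clonotype-free barcodes and 1 UMI in 119 clonotyped ones. The Trdc ratio there was 5.57 (0.772 to 244), and that of Tcrg-C2, from the same counts of 9 and 1, was equal to it, an interval that includes 1. Tcrg-C4, with 11 and 4 UMIs, was at 1.70 (0.504 to 7.33).

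**Figure D2:**
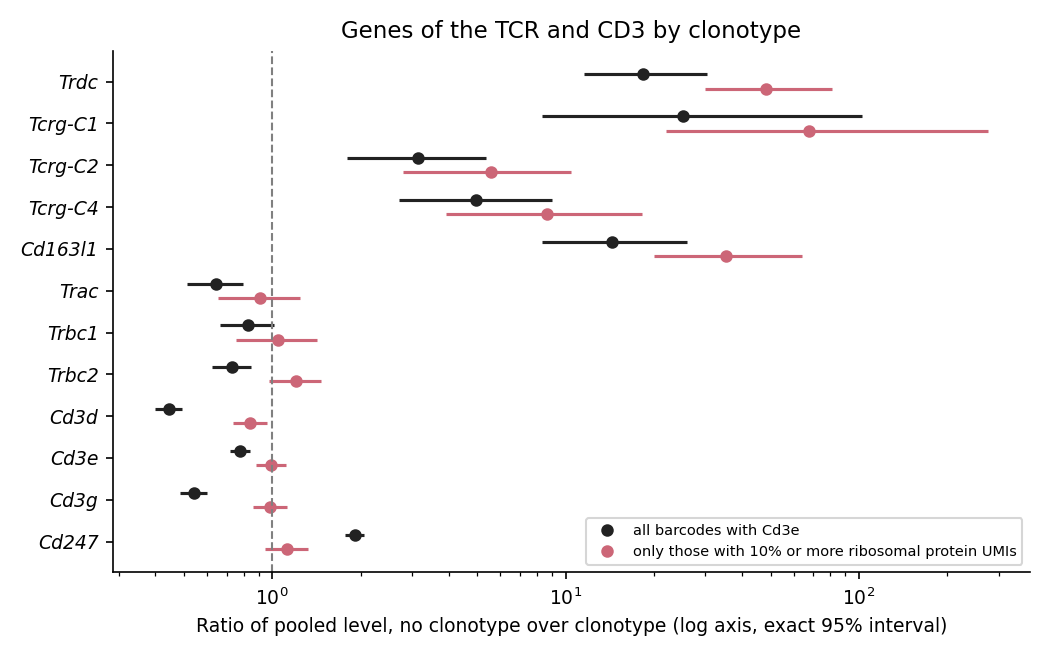
Ratio of the pooled level in Cd3e barcodes without a clonotype over those with one (log axis, points, with exact 95% intervals as lines), in all Cd3e barcodes (black) and in those with at least 10% ribosomal protein UMIs (red). The 5 genes lie to the right of 1 in both sets, from 3.14 to 67.5, while Trac, Trbc1, Trbc2 and the CD3 genes lie between 0.444 and 1.91.

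Coreceptor status gave a like division. The 1221 Cd3e barcodes fell into 312 with Cd4 alone, 639 with Cd8a or Cd8b1 alone, 41 with both and 229 with neither. Trdc held 1, 30, 0 and 72 UMIs in these groups, or 0.00765 (0.000194 to 0.0426) per 10000 in Cd4, 0.0684 (0.0461 to 0.0976) in Cd8 and 0.858 (0.671 to 1.08) in coreceptor-free barcodes. Of the 3 groups with a Trdc UMI, coreceptor-free barcodes were highest and Cd4 barcodes lowest, with no overlap of the intervals of coreceptor-free and Cd8 barcodes. Cd8 barcodes were 8.94-fold (1.49 to 365) above Cd4 barcodes, with 1 Trdc UMI behind the latter. The 41 barcodes with both coreceptors held 0 UMIs of all 5 genes, which allows a level of up to 0.146 per 10000.

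All members were higher without than with a coreceptor. The ratio of coreceptor-free to all coreceptor-bearing barcodes was 16.3 (10.6 to 25.8) for Trdc and 31.6 (10.4 to 129) for Tcrg-C1. It was 5.83 (3.44 to 9.81) for Tcrg-C2, 14.5 (7.76 to 28.2) for Tcrg-C4 and 11.4 (6.80 to 19.3) for Cd163l1, which fell to 4.635 (2.36 to 8.87) without the barcode that held 25 of its 42 coreceptor-free UMIs. A rise of at least 2-fold was met by 6% of all 10431 genes. Tcrg-C1 and Tcrg-C4, with 4 and 16 UMIs in coreceptor-bearing barcodes, passed the filter of 20 UMIs only through the coreceptor-free group. No count of members is therefore given here either. Tcrg-C2 was again the gene with most UMIs in Cd8 barcodes, 34 in 25 of the 639, against 29 in 12 of the 229 coreceptor-free barcodes. In Cd4 barcodes it held 1 UMI, a ratio of Cd8 to Cd4 of 10.1 (1.70 to 412), while Tcrg-C4, with 13 and 3 UMIs, gave 1.29 (0.355 to 7.06). For Cd163l1 the same ratio was 2.28 (0.690 to 11.9), which includes 1.

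Clonotype and coreceptors were then crossed. Coreceptor-free barcodes without a clonotype, 102 in number, held Trdc in 18 (17.6%, 10.8 to 26.5%), against 5 of 127 (3.94%, 1.29 to 8.95%) of those with one. The Trdc ratio inside the coreceptor-free group was 7.03 (3.81 to 13.97), and for the summed gamma constant genes it was 3.22 (1.98 to 5.35). Cd163l1 held 42 UMIs in 3 of the 102, with 25 in 1 of them, and 0 in the 127. The ratio was 21.7 with the 0 set to the floor of 3 counts, and the lower limit of the exact interval was 16.9. Both values take no account of the clustering of these UMIs in 3 barcodes. In Cd8 barcodes the Trdc ratio was 15.5 (6.94 to 37.2) but that of the gamma sum was 1.90 (0.847 to 3.85), which includes 1. The 62 Cd4 barcodes without a clonotype held 0 UMIs of each member, which allows up to 0.176 per 10000. The 250 clonotyped Cd4 barcodes were below that limit, at 0 to 0.0264, so no difference was detectable at this depth.

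Shares of barcodes with a UMI depend on depth. When each barcode was thinned to 2500 UMIs, leaving out 94 clonotype-free and 75 clonotyped barcodes that were shallower, Trdc was found in 9.035% of the former and 0.717% of the latter, against 11.3% and 1.297% of the same barcodes unthinned and 8.72% and 1.19% of all. The share for the gamma sum was 7.82% against 2.37% after thinning and 10.8% against 4.83% of the same barcodes before it. Barcodes with B cell markers, which should lack these genes, held a member UMI in 0 of 87 at a median depth of 3668 UMIs, which allows a share of up to 3.45%. In 20532 barcodes with 10 to 50 UMIs, taken as free RNA, Trdc made up 0.0720 per 10000. At 5% of the UMIs of clonotyped barcodes, an assumed share, this would give 2.06 Trdc UMIs, where 24 were counted. For Tcrg-C1 it would give 1.37 UMIs, where 4 were counted. The free RNA level was above that of clonotyped barcodes for Trdc (0.0420) and for Tcrg-C1 (0.0480 against 0.00700). It was also above for Tcrg-C4 (0.0720 against 0.0455) and Cd163l1 (0.0360 against 0.0332), and near equal for Tcrg-C2 (0.0720 against 0.0717). For each gene the intervals overlapped. The true share of free RNA in these barcodes was not tested.

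Delta and gamma RNA were found together in 23 barcodes. They made up 48.9% of the 47 barcodes with Trdc and 31.5% of the 73 with a gamma constant gene. Among Cd3e barcodes, 15 of the 26 clonotype-free barcodes with Trdc held a gamma constant gene too, against 4 of the 11 clonotyped ones. Of the gamma genes, Tcrg-C1 overlapped most with Trdc, with 15 of its 20 barcodes, compared with 9 of 40 for Tcrg-C2 and 11 of 32 for Tcrg-C4. At 2 UMIs of each or more, 10 barcodes remained. None of the 10 barcodes that Scrublet predicted as doublets held Trdc.

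**Figure D3:**
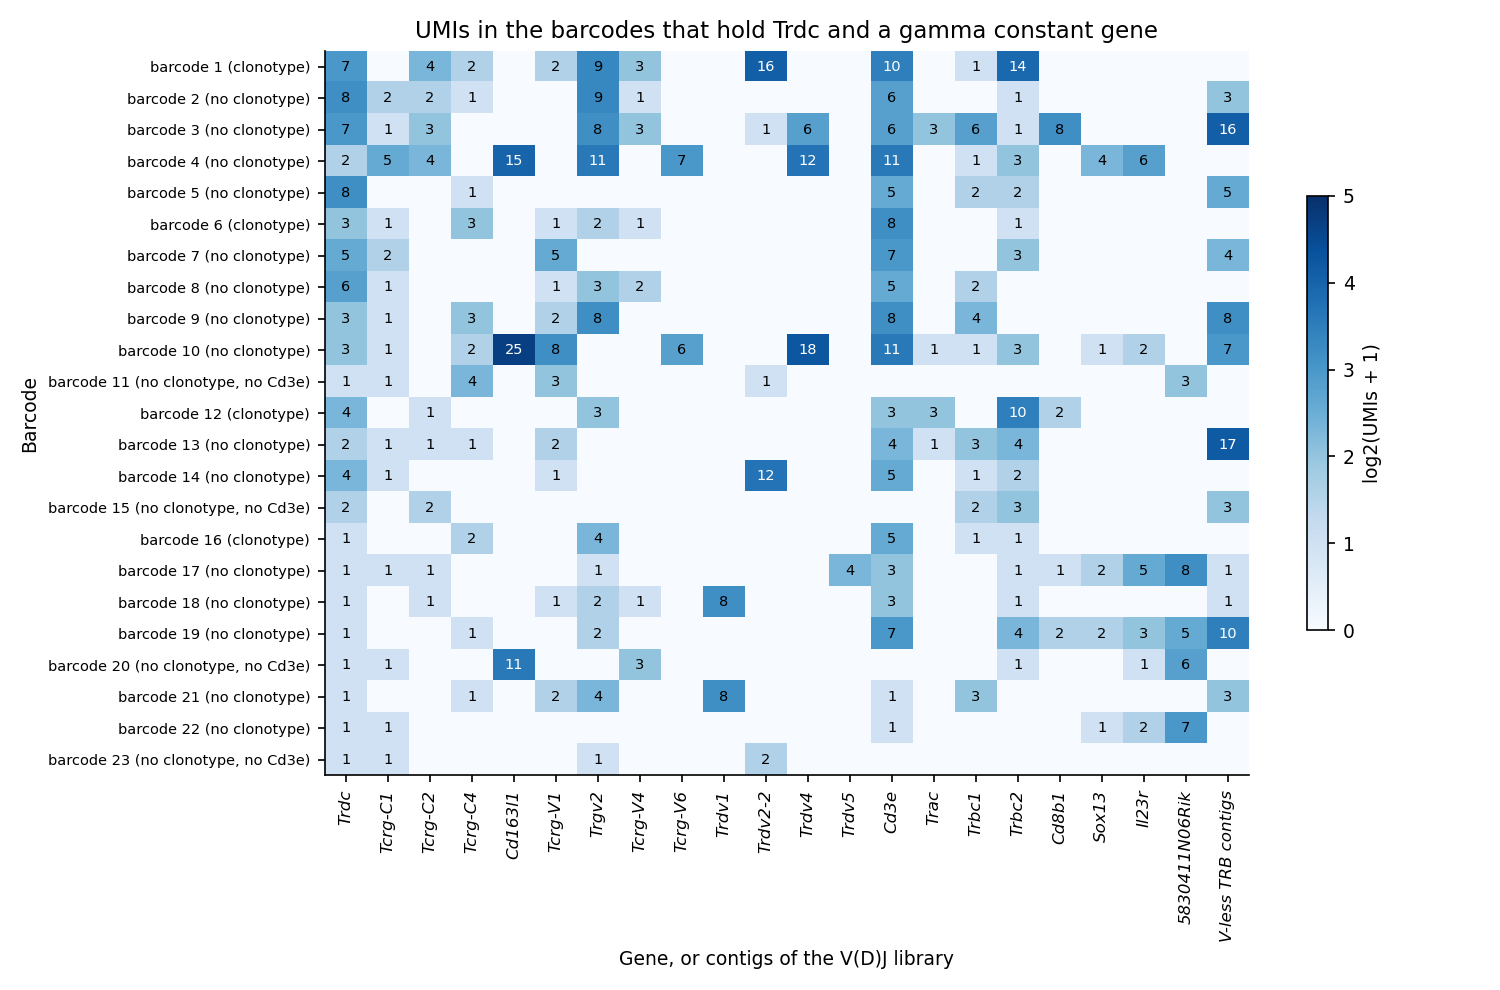
UMIs (numbers, colour on a log2 scale) of genes and of contigs with TRB J and C parts and no V part in the 23 barcodes (rows, numbered by their summed Trdc and gamma constant UMIs) that hold both Trdc and a gamma constant gene. 19 of the 23 have no clonotype, and Sox13 and Il23r appear together in 5 rows, in 2 of them with Cd163l1, Tcrg-V6 and Trdv4.

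The 15 clonotype-free Cd3e barcodes with both chains were chosen by their own member UMIs, so their member levels are a description. They had a median of 6855 UMIs, and 2 of them were under 10% in ribosomal protein UMIs. Trdc held 53 UMIs, with 1 to 8 in each. Tcrg-C1 was found in 11 of them, Tcrg-C4 in 7, Tcrg-C2 in 6 and Cd163l1 in 2. A Cd3e UMI was required in both groups, so the level of Cd3e is partly set by that choice. For the other CD3 genes the intervals of the ratios included 1. Cd3d was at 0.808 (0.616 to 1.04), Cd3g at 1.10 (0.858 to 1.38) and Cd247 at 0.987 (0.707 to 1.34). Trac held 5 UMIs, a ratio of 0.375 (0.121 to 0.878), while Trbc1 was at 1.94 (1.22 to 2.94) and Trbc2 at 1.03 (0.666 to 1.53). Cd4 and Cd8a were at 0 UMIs, and Cd8b1 held 11 UMIs in 3 barcodes.

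These 15 barcodes held no UMI of the monocyte, neutrophil and erythroid lists, which allows up to 0.392 per 10000 for each. Clonotyped barcodes were below that limit, at 0.131, 0.0105 and 0.0507, so no difference was detectable at this depth. Of the NK list, 4 of 7 genes were at 0, among them Ncr1 and Tyrobp, and its summed level was 0.850 (0.367 to 1.68) per 10000 against 0.945 (0.867 to 1.03) in clonotyped barcodes. Of the B list, 4 of 6 genes were at 0, among them Cd79a and Ms4a1, and the summed level was 1.49 (0.813 to 2.50) against 1.98 (1.87 to 2.10). The platelet list held 1 UMI. Erythroid UMIs were many in the clonotype-free group as a whole, 4185 in 12 barcodes, and the barcode with most of them held 0 Trdc and 0 gamma constant UMIs. Of 14 barcodes with at least 2 NK markers and no Cd3e, 2 held 1 Trdc UMI each.

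The same 15 barcodes were compared with clonotyped ones by lists of genes. Over all 10090 genes with at least 20 UMIs in both groups together, 10.8% were at least 2-fold higher and 27.7% lower, with a median of 0.902. A list of 19 genes known from IL-17-producing gamma delta T cells had 9 members past this filter, but Tmem176a, Tmem176b and 5830411N06Rik passed it only through the 15 barcodes, where they were high, so no count of higher genes is given. Of the others, Actn2 was at 9.89 (5.19 to 17.5), the chemokine receptor gene Cxcr6 at 7.50 (5.03 to 10.9), the transcription factor gene Maf at 4.05 (1.71 to 8.24) and Ccr2 at 1.61 (0.433 to 4.21). A list of 15 genes of the interferon and cytotoxic programme had 7 genes at least 2-fold higher, of which Ly6c2, Il2rb, Klrk1 and Cd7 had intervals above 1. Its 3 genes under the opposite fold, Ifng, Gzmb and Tbx21, held 0, 0 and 1 UMIs, with intervals that include 1. Ccl5 and Nkg7 of this list were level, at 0.956 (0.858 to 1.06) and 0.979 (0.768 to 1.23). The median of this list was 1.55, or 2.27 with the 2 genes at 0 set to the floor of 3 counts.

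Il23r, the receptor subunit for IL-23, divided the barcodes. It held 18 UMIs in 5 of the 15 and 1 UMI in 1 of the 923 clonotyped barcodes. Sox13, a transcription factor of gamma delta T cells, held 10 UMIs in the same 5 barcodes. It held 0 UMIs in the 923 clonotyped barcodes.

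In the 5 barcodes with Il23r, further genes of the IL-17 list held most of their UMIs. Cxcr6, a chemokine receptor, held 27 of its 32 UMIs there, Tmem176a, a membrane protein, 25 of 26, and Blk, a Src family kinase, all 13. 5830411N06Rik, the relative of Cd163l1 known as Scart2, held 20 UMIs in 3 of the 5 and 0 in the other 10. Il17a itself was at 0 and Il17f held 1 UMI. Ccl5, Nkg7, Ly6c2 and Eomes, genes of effector and memory T cells, were at 0 in all 5, and so was Cd27. The interval of such a 0 reached 1.52 per 10000. It overlapped those of Eomes (0.589 to 2.44) and Cd27 (1.095 to 3.36) in the other 10, so no difference was detectable for these 2 genes. Klrk1, Il2rb and Cd7 of the interferon list held 10, 5 and 5 UMIs in the 5 barcodes with Il23r.

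The other 10 barcodes held 0 UMIs of Sox13 and Blk. Ly6c2, a surface antigen of effector and memory T cells, was found in 10 of 10, with 1 to 44 UMIs each and 173 in all. The chemokine Ccl5 held 349 UMIs in 9 of the 10 and the cytotoxic granule gene Nkg7 held 75 UMIs, also in 9. Cd27, a costimulatory receptor, held 14 UMIs in 9 barcodes. Clonotyped barcodes held these genes too. Ccl5 was at 49.9 (44.8 to 55.4) per 10000 in the 10 against 38.8 in clonotyped barcodes, and Nkg7 at 10.7 (8.44 to 13.45) against 8.14. Ly6c2 was at 24.75 (21.2 to 28.7) against 7.27, and Cd27 at 2.00 (1.095 to 3.36) against 2.05. Ifng and Gzmb were at 0 in all 15. Since the split by Il23r was drawn after these values were seen, it describes 15 barcodes of 1 mouse. Cd163l1 held 40 UMIs in 2 of the 5 and 0 in the 10. Trdc held 8 UMIs (3.30 per 10000, 1.43 to 6.51) against 45 (6.44, 4.70 to 8.61), and the gamma sum held 16 (6.61, 3.78 to 10.7) against 23 (3.29, 2.09 to 4.94), so the intervals of both overlapped.

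Cd163l1 was not limited to these barcodes. It was found in 13, of which 3 held Trdc and a gamma constant gene, all with Il23r, and these 3 held 51 of the 79 UMIs, 11 to 25 each. Another held a gamma constant gene alone, with 2 Cd163l1 UMIs. The remaining 9 held neither Trdc nor a gamma constant gene. They had 1 to 7 Cd163l1 UMIs each, 7 had a clonotype, 7 held Cd8a or Cd8b1, 2 held Cd4 and 0 held Il23r. Between barcodes that held Trdc and those that held Cd163l1, the overlap was 6.38% of the former and 23.1% of the latter.

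Leaving out the members and the TCR, immunoglobulin, mitochondrial and ribosomal protein genes, the highest ratios between the 15 barcodes and clonotyped ones were those of Tmem176a, Tmem176b and 5830411N06Rik. Next came Pard3, a polarity gene, with 8 UMIs in 3 barcodes and a ratio of 40.5 (14.4 to 108), and Nhsl2, with 8 UMIs in 5 and a ratio of 30.4 (11.3 to 75.2). Nf1, a regulator of Ras, owed its ratio of 29.3 to 43 UMIs in 1 barcode. Plxdc2, Serpinb1a, Scpep1 and Myo1e completed the 10 highest, with ratios of 12.7 to 16.0. Tmem176a, Tmem176b, 5830411N06Rik, Pard3, Nhsl2 and Plxdc2 held 9 to 19 UMIs in clonotyped barcodes. They passed the filter on UMIs of both groups together only through the 15 barcodes, where they were high. Their places in this ranking are therefore descriptions. At the low end were genes with 0 UMIs in the 15 barcodes, Cd8a, Cd4, Il6st, Tasor and Gzmk. Il6st, the signalling chain shared by receptors of the IL-6 family, held 506 UMIs in clonotyped barcodes, and the upper bound of its ratio was 0.444. For Gzmk, a granzyme, the bound was 0.460, but its 489 UMIs in clonotyped barcodes lay in only 85 of the 923. A bound on UMIs takes no account of such clustering, so it does not establish a lower level of Gzmk.

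Lef1 and Cd5 were low as well. Cd5, an inhibitory receptor whose level follows TCR signal strength, held 2 UMIs in 1 of the 15 barcodes, a ratio of 0.0959 (0.0116 to 0.347). Lef1, a transcription factor of naive T cells, was at 0.396 (0.267 to 0.566), with 29 of its 30 UMIs in the barcodes without Il23r. Tcf7, its relative, was level at 1.05 (0.795 to 1.36). Of the 11 genes in the list of lineage and signal strength, 8 could be compared. Of these, 0 were at least 2-fold higher and 4 lower, against 10.8% and 27.7% of all 10090 genes. With 8 genes, these counts are no result about the list. Besides Cd5 and Lef1, Egr1 and Nr4a1 were at 0 UMIs, with upper bounds of 7.95 and 12.3, so no difference was detectable for them at this depth.

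The genes whose level followed that of Trdc most closely over 1221 Cd3e barcodes included 5 gamma genes among the first 10. By Pearson's r on the natural log of 1 plus UMIs per 10000, they were Tcrg-C1 (r = 0.496), Tcrg-V1 (0.406), Tcrg-V4 (0.309), Tmem176a (0.287), Trgv2 (0.286) and Il23r (0.270). Tcrg-C4, Trdv2-2, Trdv4 and Tmem176b followed. Trdc and Tcrg-C1 shared 12 of 37 and 16 barcodes. The summed gamma constant genes instead followed Trgv2 (r = 0.604), Tcrg-V1 (0.448) and Zbtb16 (0.404), the transcription factor of innate-like T cells, before Trdc (0.382). Then came Il23r, Trdv4, Tcrg-V4, Tmem176a, Blk and Klrk1. The barcodes share a library and their UMIs are sparse, so these values are descriptions.

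By pooled level, variable segments were divided much like the constant genes. Gamma variable segments held 168 UMIs in 28 of 298 clonotype-free and 242 UMIs in 68 of 923 clonotyped barcodes, 1.64 (1.404 to 1.91) against 0.423 (0.372 to 0.480) per 10000. Trgv2 made up 195 of the 242 UMIs and was found in 64 clonotyped barcodes (6.93%) and 18 clonotype-free ones (6.04%). Its ratio of pooled levels was 3.01 (2.35 to 3.84), with up to 23 UMIs in 1 clonotype-free barcode. Of its 309 UMIs in all called barcodes, 161 were in Cd8 barcodes, 6 in Cd4 and 133 in coreceptor-free ones. Tcrg-V1 was divided more sharply, with 28 against 13 UMIs and a ratio of 12.04 (6.03 to 25.3), and Tcrg-V6, with 13 against 4 UMIs in 2 and 1 barcodes, gave 18.2 (5.61 to 76.5).

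Gamma variable segments were found with several constant genes. Trgv2 was found in 31 of 40 barcodes with Tcrg-C2, 22 of which had a clonotype, but also in 12 of 20 with Tcrg-C1 and 18 of 32 with Tcrg-C4. Tcrg-V1 was found with Tcrg-C4 in 14 of its 25 barcodes, with Tcrg-C1 in 9 and with Tcrg-C2 in 6. Of the segments in the cluster of Tcrg-C1, Tcrg-V6 was found with Tcrg-C1 in 3 of 3 barcodes and with Tcrg-C2 in 2, and Tcrg-V5 with Tcrg-C1 in 0 of 3. Tcrg-V4 was found with Tcrg-C1, Tcrg-C2 and Tcrg-C4 in 7, 7 and 8 of its 25 barcodes, and Tcrg-V7, in 2 barcodes, with each of the 3 once.

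Delta variable segments differed among themselves. Trdv4 held 40 UMIs in 4 clonotype-free Cd3e barcodes and 0 in the 923 clonotyped ones. The ratio was 74.5 with the 0 set to the floor of 3 counts, and the lower limit of the exact interval was 57.9. Both values take no account of the clustering of these UMIs in 4 barcodes. Trdv4 was highest, at 18 and 12 UMIs, in the 2 barcodes that also held Tcrg-V6. These 2 segments are the pair known from an invariant receptor of IL-17-producing gamma delta T cells. Those 2 barcodes held 25 and 15 Cd163l1 UMIs. Trdv5 held 18 UMIs in 6 clonotype-free barcodes and 4 in 1 clonotyped one, a ratio of 25.2 (8.29 to 102). Trdv1 and Trdv2-2 were found in more clonotyped barcodes than Trdv4 and Trdv5, with 36 UMIs in 8 (0.867%) and 61 UMIs in 35 (3.79%). In clonotype-free barcodes they were found in 4 (1.34%) and 14 (4.70%). Their ratios were 3.26 (1.81 to 5.74) and 4.12 (2.74 to 6.16), and of these 8 and 35 clonotyped barcodes 0 and 2 held Trdc. Variable genes that can be joined to either the alpha or the delta chain, 10 in number, held 50 UMIs in 6 of the 15 barcodes with both constant chains, or 5.31 (3.94 to 7.004) per 10000, against 0.583 (0.522 to 0.649) in clonotyped barcodes and 0 UMIs in those with B cell markers.

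**Figure D4:**
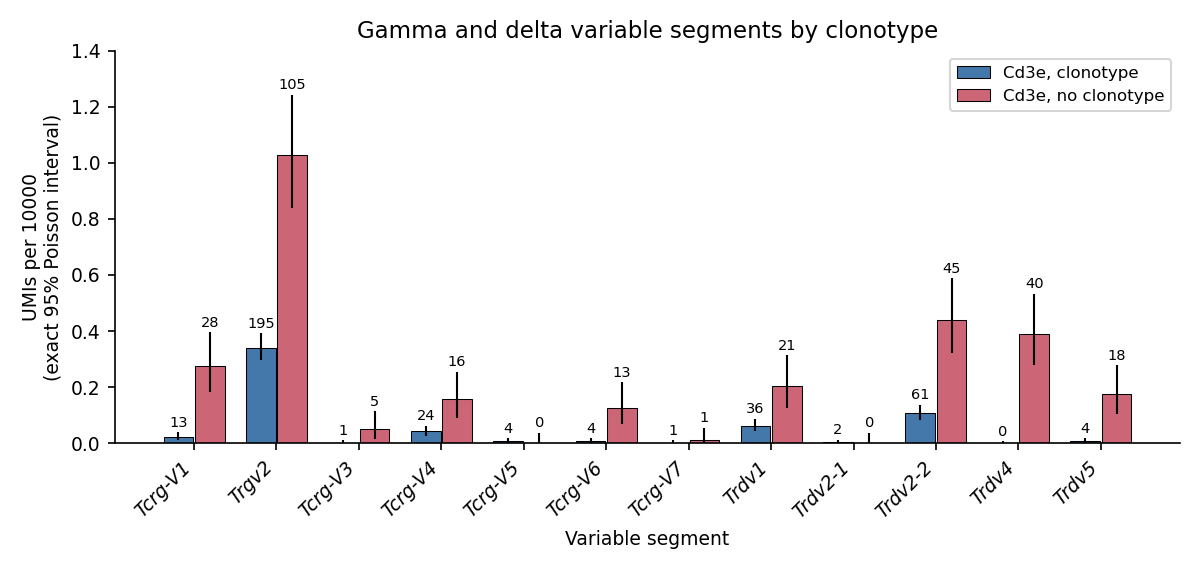
Pooled level (UMIs per 10000, bars, with exact 95% Poisson intervals as lines and UMI counts above) of gamma and delta variable segments in Cd3e barcodes with (blue) and without (red) a clonotype. Trdv4 has 40 UMIs without and 0 with a clonotype, while Trgv2, Trdv1 and Trdv2-2 have 195, 36 and 61 UMIs in clonotyped barcodes.

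The contig table shows some of the joins of delta segments in clonotyped barcodes. It holds 6687 contigs, 11 with a delta V segment and 0 of a gamma chain. All named chains were TRA, TRB or TRD, and every constant part of a delta V contig was TRAC. Whether the V(D)J library could return chains that end in Trdc or a gamma constant gene is not given in the sources used here. Its counts of 0 for gamma chains and delta J segments therefore say nothing about such chains. None of the 11 was productive, 9 were joined to an alpha J segment and 0 to a delta J segment. All 9 of these junctions had a length in frame. The junctions (CDR3) of the 5 in called barcodes with a J segment are given, with the bases found in the alpha J segment in capitals. The capitals mark the alpha J part, while the end of the delta V part was not determined:
TRDV1 to TRAJ34: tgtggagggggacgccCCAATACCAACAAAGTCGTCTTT
TRDV1 to TRAJ49: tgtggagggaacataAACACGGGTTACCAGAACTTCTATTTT
TRDV1 to TRAJ56: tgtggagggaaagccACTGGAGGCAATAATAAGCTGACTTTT
TRDV1 to TRAJ47: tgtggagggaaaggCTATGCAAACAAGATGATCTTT
TRDV2-2 to TRAJ48: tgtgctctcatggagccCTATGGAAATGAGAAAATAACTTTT
These 5 contigs had 11, 8, 3, 2 and 1 UMIs and ended in TRAC. They lay in clonotyped barcodes with 0 Trdc UMIs each, 4 of them in barcodes with no productive TRA contig, where the matrix held 12, 10, 2, 3 and 1 UMIs of the same delta V gene. In all, barcodes with a contig of the segment held 33 of the 36 Trdv1 UMIs of clonotyped barcodes, but 1 of the 61 Trdv2-2 UMIs.

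Trdc or a gamma constant gene was found in 49 clonotyped and 35 clonotype-free Cd3e barcodes, but both together in 4 and 15. Of the 4 with Trdc and a gamma constant gene, 2 had a productive TRA and TRB chain and 2 had TRB alone. The barcode with most Trdc of these held 7 Trdc, 6 gamma constant and 16 Trdv2-2 UMIs beside a TRA and a TRB contig of up to 23 UMIs, with 0 Trac and 14 Trbc2 UMIs. Over all clonotyped Cd3e barcodes, the gamma sum was 0.101 (0.0741 to 0.133) per 10000 in 739 with both chains and 0.254 (0.155 to 0.393) in 157 with TRB alone. Trdc was 0.0419 (0.0256 to 0.0647) and 0.0509 (0.0139 to 0.130) there.

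Contigs were also found in clonotype-free barcodes with Trdc, but of an incomplete kind. Of the 15 with Trdc and a gamma constant gene, 12 held a contig, 0 held a TRA contig and 1 held a productive one. Of their 23 contigs, 8 had 1 UMI and 3 were marked as high confidence. That mark was held by 75 of 236 contigs in clonotype-free Cd3e barcodes with neither gene and by all 2431 in clonotyped ones. Of the 23 contigs, 18 had a TRB J and a TRB C part and no V part. Such contigs were deposited with no chain named, and are called TRB here from their J and C parts alone. They were found in 11 of the 15 barcodes (73.3%, 44.9 to 92.2%), with 1 to 17 UMIs a barcode. Such contigs were found in 34 of 263 clonotype-free Cd3e barcodes with neither gene (12.9%, 9.12 to 17.6%) and in 276 of 923 clonotyped ones (29.9%, 27.0 to 33.0%). With at least 10% ribosomal protein UMIs, the shares were 10 of 13 (76.9%, 46.2 to 94.96%) and 14 of 53 (26.4%, 15.3 to 40.3%) with and without the genes, at median depths of 6875 and 2893 UMIs, and the part of depth in this was not tested. Barcodes with B cell markers held such a contig in 0 of 87. Among all contigs 723 were of this kind, with a median length of 369 bases against 543 for productive TRB contigs, and none was productive.

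**Figure D5:**
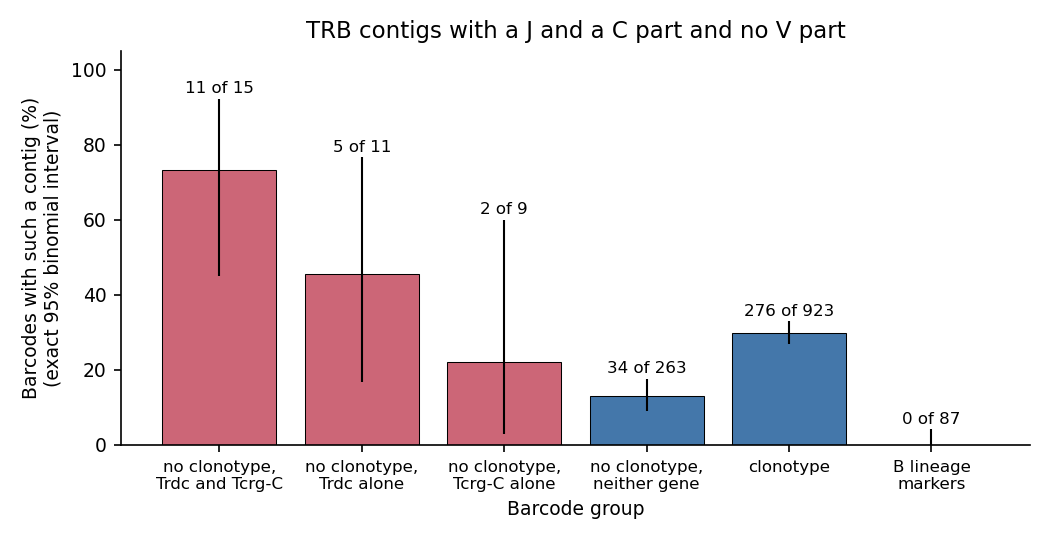
Share of Cd3e barcodes with a TRB contig that has a J and a C part and no V part (bars, percent, with exact 95% binomial intervals as lines and counts above), by clonotype and by Trdc and gamma constant UMIs, with barcodes holding B cell markers and no Cd3e at the right. The share is 73.3% in barcodes with both genes and 12.9% in clonotype-free barcodes with neither. Of all 23 contigs in the barcodes with both genes, 3 were marked as high confidence.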

How the data were processed

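Gene expression and TCR contigs were read from droplets of 1 vehicle library with 10x kits and Cell Ranger, version 4 per the file headers, on GRCm38 per the submitters' processing notes. The kit chemistry, the annotation release and any strand setting are not given in the sources used here. The deposited matrix holds UMI counts made by the authors without a filter on cells, 12855001 UMIs over 300213 barcodes, and the authors also deposited read and UMI counts of each contig. Barcodes were called at the 99th percentile of the 3000 largest totals divided by 10. A clonotype required a contig called a cell with a clonotype identifier. B cell and NK barcodes held at least 2 of 4 lineage markers and no Cd3e.

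Pooled UMIs were compared as ratios with exact conditional binomial intervals, shares with Clopper-Pearson intervals and UMI sums with Poisson intervals. A count of 0 was given the limit of 3 counts. Genes needed 20 UMIs in both groups together. Thinned shares are expected values. Scripts used Python 3.11.15 and scipy 1.17.1, with Scrublet from scanpy 1.11.5 (doublets kept), and were tested on simulated data. Members, lists and tests were chosen with earlier results of these data known. Named genes are the members, all gamma and delta segments, the marker lists, the 10 genes most like Trdc and the gamma sum, and the 10 highest and 5 lowest ratios, where ties at 0 were ordered by UMIs. Gamma gene pairs, the Il23r split, chain types and contigs without a V part were examined after the values were seen. Of the 27 gamma and delta genes, Cd163l1 among them, 27 were matched to RefSeq. Alternatives were other UMI limits, clonotype and Cd3e definitions, free RNA, doublets, ribosomal content, thinning and weighting. Some marker genes are not reported here.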

Additional observations from a re-analysis of the deposited data

Results flagged for a closer look

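Apart from the free RNA level and a lower UMI limit tried as an alternative, no comparison used barcodes under the limit of 1331 UMIs. Members were also counted in these barcodes, and all 5 exceeded the limit that a count of 0 allows. Trdc held 40 UMIs there, Tcrg-C1 16, Tcrg-C2 25, Tcrg-C4 24 and Cd163l1 18. Called barcodes held 74.2% of all Trdc UMIs and 81.4% of those of Cd163l1. In 1908 barcodes with 200 to 1330 UMIs, Trdc held 2 UMIs, Tcrg-C2 2, Tcrg-C4 1, Cd163l1 1 and Tcrg-C1 0. Most of the remainder thus lay in barcodes with fewer UMIs.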

How the results depend on the processing

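With 1 library, every limit is one of counting: 5 members with 26 to 115 UMIs each, and groups that hold from 0 to 79 of them. Of 149 values recomputed for 39 results, 130 stayed inside the interval of the reported value, or within 1.5 times for counts of barcodes, 18 moved and 1 reversed.

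Counting any contig as a TCR moves 177 Cd3e barcodes to the other side and leaves 121 without. This lowered the clonotype ratio to 3.095 (1.70 to 5.31) for Trdc, 2.66 (0.504 to 9.03) for Tcrg-C1, 2.07 (0.795 to 4.54) for Tcrg-C2, 1.91 (0.592 to 4.81) for Tcrg-C4 and 2.10 for the gamma sum. It reversed Cd163l1, with a ratio of 0. Without barcodes under 10% ribosomal protein UMIs the ratio rose to 48.4 for Trdc, 5.56 for Tcrg-C2, 35.1 for Cd163l1 and 10.35 for the gamma sum, and the coreceptor ratio of Cd163l1 to 20.7. Without the barcode with most UMIs, the Cd163l1 ratios were 7.11 by clonotype and 4.635 by coreceptor. Barcodes with Trdc and a gamma constant gene fell from 23 to 10 at 2 UMIs of each, and those without a clonotype from 19 to 8.

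Thinning to 2500 UMIs gave Tcrg-C2 shares of 1.48% in clonotyped, 1.95% in Cd8 and 0% in Cd4 barcodes, and Tcrg-C4 shares of 0.857% in clonotyped and 0.762% in Cd8 barcodes. The cause of each shift was not tested. The contig tables, the split by Il23r and the lists were not recomputed under other settings. No paired analysis was possible because there is 1 library.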
